A study of Mus musculus with 15 samples.

Results

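Shores are the flanks of CpG-dense stretches of DNA, and here they were taken as 1000-base tiles of the mouse genome that lay close to a tile dense in CpG cytosines. A dense tile held at least 20 autosomal CpG cytosines read at least 10 times in every library. A shore tile held 3 to 19 such cytosines and lay directly next to a dense tile or with 1 tile in between. This gave 11175 shore tiles of 132441 tiles with at least 3 cytosines, or 8.44%, against 17484 dense tiles and 103782 distant tiles, which held 3 to 19 cytosines farther from any dense tile. Cytosines were counted per strand, and CpG island annotation was not used, so a shore is meant here in terms of measured cytosines. DNA came from whole lung of 15 mice and was read by reduced representation bisulfite sequencing (RRBS) and its enhanced form (ERRBS), which sample CpG-rich fragments and read an unmethylated C as T. The labels gave 7 mice as wild-type (3 male, 4 female) and 8 as Ctcf heterozygous (4 male, 4 female). All 15 had been treated at 14 days of age with a single dose of 1 mg/g body weight of urethane, a lung carcinogen, and were 46 to 55 weeks old. No untreated group was analysed here, and in whole lung a change in the mix of cells and a change within cells cannot be told apart.

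CTCF binds DNA through zinc fingers, halts cohesin at the feet of chromatin loops and separates neighbouring regulatory domains, and its binding at many sites is sensitive to CpG methylation. In mammalian tissues most CpGs are methylated, while CpG-dense promoters stay free of methylation. Shores form the transition between these states and are known as places where methylation differs between tissues and between tumours and normal tissue. The title of the series ties disruption of Ctcf to unstable methylation, so level, genotype difference and spread between mice are given in turn.

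Promoter windows show what this transition looks like in sequence. RefSeq windows on GRCm38.p6, from 250 bases before to 50 after a start site, lay wholly inside a shore tile for 809 start sites, against 7095 for dense and 2897 for distant tiles. The median window held 13 CpG dinucleotides in shore tiles, 25 in dense and 9 in distant tiles. The ratio of observed to expected CpG had a median of 0.579 in shore, 0.833 in dense and 0.445 in distant tiles. Below, 4 windows are printed 5′ to 3′ on the strand of the gene, in lower case, with capitals for the CpGs whose cytosines were read in all 15 libraries. Fam207a (chr10:77515764-77516063, minus strand) and Capn1 (chr19:6015776-6016075, minus strand) straddle the border between a dense tile and a shore tile described later. Tdg (chr10:82629588-82629887, plus strand), a DNA glycosylase of active demethylation, and Mkrn3 (chr7:62420104-62420403, minus strand), an imprinted gene, lie wholly inside a shore tile.
Fam207a: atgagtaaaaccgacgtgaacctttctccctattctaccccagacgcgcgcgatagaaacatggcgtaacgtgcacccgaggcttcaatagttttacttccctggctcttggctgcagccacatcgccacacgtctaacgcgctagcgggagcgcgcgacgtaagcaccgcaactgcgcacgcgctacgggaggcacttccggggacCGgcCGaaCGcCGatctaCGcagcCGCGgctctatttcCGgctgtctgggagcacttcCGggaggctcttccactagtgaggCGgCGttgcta
Capn1: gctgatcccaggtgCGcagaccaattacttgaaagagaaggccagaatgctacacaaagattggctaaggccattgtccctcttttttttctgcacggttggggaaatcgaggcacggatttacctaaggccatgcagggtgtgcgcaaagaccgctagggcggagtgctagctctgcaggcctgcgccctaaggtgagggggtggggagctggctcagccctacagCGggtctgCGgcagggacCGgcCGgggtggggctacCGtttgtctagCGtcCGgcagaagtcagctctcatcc
Tdg: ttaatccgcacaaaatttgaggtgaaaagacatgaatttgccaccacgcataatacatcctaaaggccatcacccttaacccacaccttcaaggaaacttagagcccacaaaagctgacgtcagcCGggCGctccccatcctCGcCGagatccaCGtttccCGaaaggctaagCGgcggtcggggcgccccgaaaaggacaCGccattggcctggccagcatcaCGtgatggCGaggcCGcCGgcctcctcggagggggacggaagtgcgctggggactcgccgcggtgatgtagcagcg
Mkrn3: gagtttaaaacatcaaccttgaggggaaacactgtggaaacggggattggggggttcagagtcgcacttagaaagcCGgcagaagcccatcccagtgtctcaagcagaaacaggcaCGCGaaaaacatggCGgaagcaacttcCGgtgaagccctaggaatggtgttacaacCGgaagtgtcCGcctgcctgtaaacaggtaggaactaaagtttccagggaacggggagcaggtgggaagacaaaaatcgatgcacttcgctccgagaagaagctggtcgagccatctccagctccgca
In the Fam207a window, 17 measured cytosines, none of them in the shore tile, averaged 0.149% methylation in heterozygous and 0.0723% in wild-type libraries, leaving out the pair of libraries named below. The Capn1 window held 11 measured cytosines, of which only 1 lay in the shore tile, with means of 8.85% (heterozygous) and 4.68% (wild-type), a difference that was not tested. The Tdg window, with 26 CpGs, ran from 0% to 0.202% by library over 12 cytosines. The Mkrn3 window, with 15 CpGs, ran from 17.6% to 27.7% over 9 cytosines. Among the 809 windows inside shore tiles, those with an observed to expected ratio of 0.8 or more lay in tiles with a mean level of 1.35%, and those under 0.2 in tiles with a mean of 30.6%.

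Libraries listed 1817633 to 2093145 cytosines each, with a median coverage of 108 to 150 reads. The median tested shore tile held 7 cytosines and 1007 reads per library summed over cytosines, at a median of 153 reads per cytosine. A read that covers several cytosines counts at each of them, so these sums are not counts of independent reads. The library labelled wild-type replicate 2, a male, listed 300 Y-chromosome cytosines, against 1915 and 1976 in the other wild-type males and 271 to 326 in the libraries of the other labelled females. The library labelled heterozygous replicate 5, a female, listed 1985, within the range of 1915 to 2055 in the other labelled males. Sample title and deposited table carry unlike animal numbers for both, and also for wild-type replicates 1 and 3, which stay among the 13 libraries. Results are therefore given for all 15 libraries and for the 13 without the pair of replicates 2 and 5, and both sets keep the labels as given.

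Of the shore tiles, 11158 kept at least 3 cytosines after those of very high coverage were set aside. By position, 8288 of the 11175 lay directly next to a dense tile, 2887 had 1 tile between, and 455 had dense tiles on both sides. Genes covered 81.1% of shore tiles, 15.0% lay within 2 kb of a gene and 3.95% were intergenic, against 32.3% intergenic for distant tiles. A listed start site lay inside 9.79% of shore tiles, against 45.4% of dense and 3.52% of distant tiles, and a further 51.3% of shore tiles lay 1 to 2000 bases from a start site.

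Shore tiles had a mean methylation level of 29.7% in the lowest and 31.9% in the highest of 15 libraries, between the means of 6.89% for dense and 70.2% for distant tiles. The level was bimodal: 41.3% of shore tiles lay under 5%, 28.1% between 20% and 80%, and 16.5% over 80%, with a median of 11.9%. In each of 15 libraries the shore mean exceeded the dense mean, by 23.0 to 24.7 percentage points, and stood below the distant mean. Both contrasts gave p = 6.10352e-05 by an exact two-sided sign-flip permutation over libraries (n = 15), the smallest p that 32768 sign patterns can give. The 13 libraries gave 24.1 and -39.2 points, with p = 0.000244141 by the same exact permutation, again the smallest possible.

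Distance within the shore separated the tiles further. Tiles directly next to a dense tile averaged 21.8%, and tiles with 1 tile between averaged 57.3%, a difference of -35.5 points (exact two-sided sign-flip permutation p = 6.10352e-05, n = 15 libraries). Beyond the shore the level was 62.2% at the third tile and 71.7% more than 20 tiles out. Over the 85392 cytosines of the 10720 tiles with a dense tile on 1 side, the mean level was 6.78% in the first 100 bases, 30.9% at 400 to 500 bases, 45.9% at 900 to 1000 bases and 57.6% at 1700 to 1800 bases. The share of cytosines under 20% dropped from 90.8% in the first 100 bases to 24.3% at 1700 to 1800 bases. In the last bin, 1900 to 2000 bases, the mean level was 54.3% and the share 27.9%, so the level did not rise to the end of the shore. Number of cytosines moved with distance, since directly adjacent tiles held a median of 8 and the others 5. Among tiles of 3 to 5 cytosines, a comparison chosen after the data were seen, the difference between the positions was -32.7 points.

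**Figure D1:**
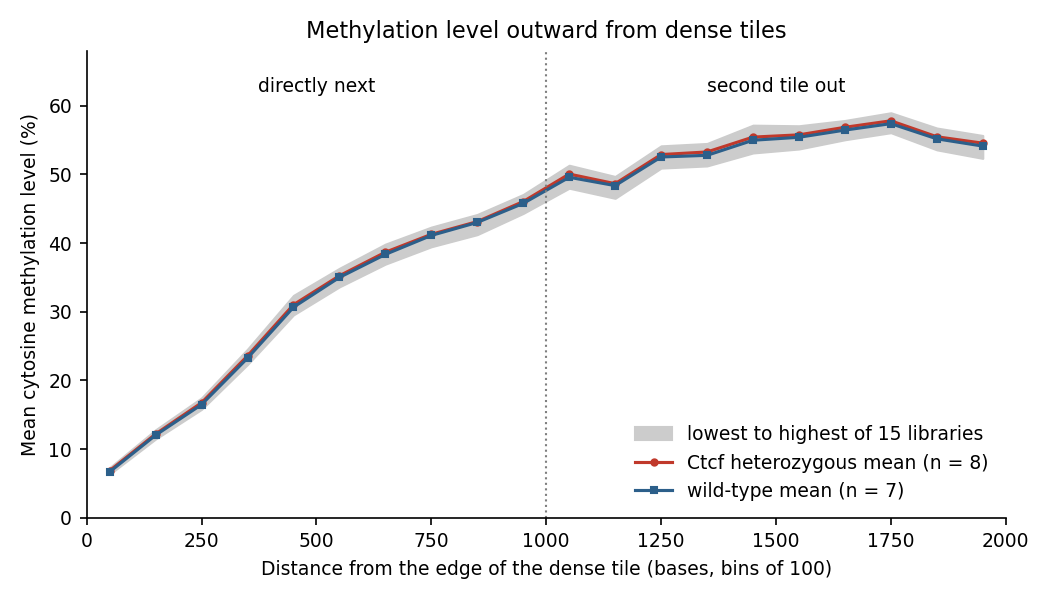
Mean methylation level of single cytosines (percent, vertical axis) against distance from the edge of the dense tile (bases, in bins of 100), for shore tiles with a dense tile on 1 side; the band spans the lowest to the highest of 15 libraries and the lines are the genotype means. The level rises from 6.78% in the first bin to 57.6% at 1700 to 1800 bases and is 54.3% in the last bin. The heterozygous and wild-type means are 6.86% and 6.69% in the first bin and 54.5% and 54.1% in the last.

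At like numbers of cytosines, shore tiles were less methylated than distant tiles. With 3 or 4 cytosines, the mean was 43.1% in shore and 73.2% in distant tiles. With 15 to 19 cytosines, the means were 13.7% and 45.4%. At the edge of the rule, shore tiles of 19 cytosines averaged 13.5% and dense tiles of 20 cytosines averaged 25.4%, so the number of cytosines alone did not order the classes.

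**Figure D2:**
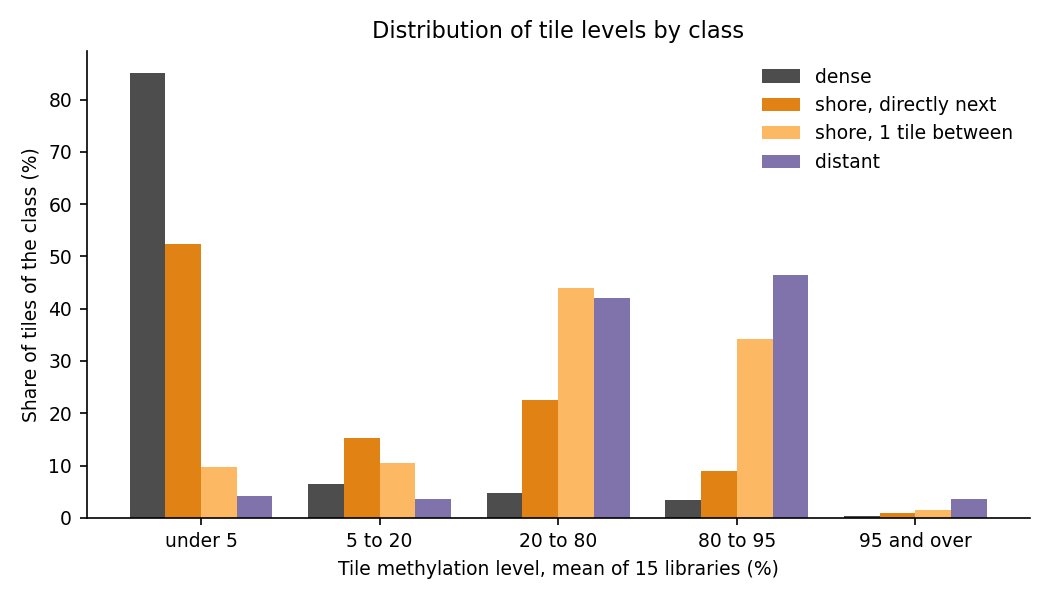
Share of tiles (percent, vertical axis) in each of 5 ranges of methylation level (mean of 15 libraries), for dense tiles, the 2 positions of shore tiles and distant tiles. Directly adjacent tiles are mostly under 5% (52.3%), while tiles with 1 tile between lie mostly between 20% and 80% (44.0%) or 80% and 95% (34.1%).

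The state of the dense neighbour went along with that of the shore. Beside a dense tile under 20%, shore tiles averaged 25.5% (9805 tiles), beside one at 20% to 80% they averaged 61.4% (732 tiles), and beside one over 80% they averaged 81.2% (621 tiles). A shore tile under 20% occurred at 62.2% of unmethylated neighbours and at 0.966% of methylated ones, or 6 tiles. The shore tile lay above its dense neighbour in every library at 57.6% of tiles and below it in every library at 8.07%. A gap of over 50 points separated 2382 shore tiles from a less methylated neighbour and 40 from a more methylated one. The mean gap was 21.4 points in both heterozygous and wild-type libraries (exact two-sided permutation of genotype p = 0.779, n = 8 and 7).

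The mean shore level did not separate the genotypes. Heterozygous libraries averaged 31.1% ± 0.932 (SD, n = 8), and wild-type libraries averaged 30.8% ± 0.556 (SD, n = 7), a difference of 0.262 points (exact two-sided permutation of genotype p = 0.520). Heterozygous libraries ran from 29.7% to 31.9% and wild-type libraries from 30.3% to 31.6%, so the wild-type range lay inside the heterozygous one. Without the pair the difference was 0.308 points (exact permutation p = 0.520, n = 7 and 6). In the 9 libraries whose tables were written with 2 decimals the difference was -0.221 points (exact permutation p = 0.706), and in the 6 with 3 decimals it was 1.01 points (exact permutation p = 0.133, smallest possible 0.0667). Labelled females differed by 0.712 points and labelled males by -0.330 points, with exact permutation p of 0.286 and 0.657. Across 16 overlapping kinds of shore tile (by position, cytosine number, neighbour, start site, gene and level), no genotype difference in level passed, with an adjusted p of 0.624 for each by exact permutation in 15 libraries (n = 8 and 7). The widest was at tiles beside dense tiles of 20% to 80%, at 61.7% ± 1.72 (SD, n = 8) against 61.0% ± 1.14 (SD, n = 7).

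The distance between shore and distant tiles was compared between the genotypes as well. The shore level minus the distant level was -39.4 points in heterozygous and -39.0 points in wild-type libraries, a difference of -0.360 points (exact two-sided permutation p = 0.0572, n = 8 and 7). Without the pair it was -0.411 points with p = 0.0612 by the same permutation. Leaving out heterozygous replicate 6, the library with the lowest total coverage, gave -0.474 points with 15 libraries to start from, and an exact permutation p of 0.00350. It also passed without wild-type replicate 2 (-0.403 points) and without heterozygous replicate 3 (-0.414 points). In 12 of the 15 runs that left out 1 library it did not pass.

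Tile by tile, no shore tile passed in the 15-library comparison. Quasi-binomial regression with sex as covariate called 0 of 11153 shore tiles at an adjusted p of 0.05, where the background over all tiles was 0% called. Unadjusted p was under 0.05 at 960 shore tiles, or 8.61%, against 9.01% of all 132198 tiles. limma and edgeR also called 0, with 958 and 1030 shore tiles at an unadjusted p under 0.05. The smallest adjusted p was 0.183. Without wild-type replicate 2 alone, 7 shore tiles passed, along with 0.0514% of all tiles.

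The tiles of smallest p in 15 libraries are given as values. Inside Ccdc87 (chromosome 19, 4840000 to 4840999), heterozygous libraries averaged 71.6% and wild-type libraries 64.9%, a difference of 6.61 points with a quasi-binomial adjusted p of 0.183. The tile in Slc27a3, an acyl-CoA synthetase (chromosome 3, 90388000 to 90388999), averaged 61.9% and 48.5%. Lower in heterozygous libraries were a tile in Gm30150 lying 116 bases from the start site of Akt1, a growth factor kinase (chromosome 12, 112675000 to 112675999), at 9.88% against 16.7%, a tile in Gm52687 (chromosome 4, 154301000 to 154301999), at a difference of -7.36 points from 26.4%, and a tile in Srxn1, sulfiredoxin (chromosome 2, 152106000 to 152106999), at 6.18% against 10.8%. At the Gm30150 tile all 8 heterozygous libraries, 7.34% to 12.4%, lay below all 7 wild-type libraries, 15.2% to 18.9%. Only 5 shore tiles, or 0.0448%, had groups that did not overlap in 15 libraries, against 0.0424% of all tiles.

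Without the pair, 31 of 11150 shore tiles passed, or 0.278%, against 0.262% of all 132194 tiles, so the share of shore tiles called was near the background. Heterozygous libraries were higher at 17 of the 31 and lower at 14. Over all tiles, 281 were higher (0.213%) and 65 lower (0.0492%), and 0.152% of shore tiles were higher and 0.126% lower. The balance in shore tiles moved with single libraries and was not tested against other tiles. It was 18 higher and 4 lower without heterozygous replicate 6, and 19 and 15 without wild-type replicate 3. Of all tiles, 0.241% and 0.263% were called in those runs. The difference in level at the 31 tiles had a median size of 9.92 points, against 0.676 points over all tested shore tiles. The 31 were called for that difference, so the larger size follows from the choice. Of the 31, 28 lay inside genes, 21 directly next to a dense tile and 10 with 1 tile between. The count was 18 without wild-type replicate 4, 5 or 6, 17 without heterozygous replicate 8 and 56 without heterozygous replicate 3. Of all tiles, 0.148% to 0.17% were called without those wild-type libraries, 0.138% without heterozygous replicate 8 and 0.436% without heterozygous replicate 3. It was 12 with limma, 19 with edgeR, 7 without moderated dispersion, 54 with age beside sex and 1 in the 8 libraries with 2 decimals.

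The 2 libraries left out of this comparison stood on the side opposite to their labels at most of these tiles. The library labelled wild-type replicate 2 was nearer to the heterozygous mean at 29 of 31 tiles, and the library labelled heterozygous replicate 5 nearer to the wild-type mean at 22. With the wild-type mean set at 0 and the heterozygous mean at 1, their median positions over the 31 tiles were 0.963 and 0.224. Groups of the 13 libraries did not overlap at 25 of the 31, which were chosen for their difference, and at 278 of the 346 called tiles of any class. Over all tested tiles the share was 0.628% for shore tiles and 0.517% for all. The difference had the same sign in tables of 2 and of 3 decimals and in labelled males and females at all 31. These tiles were chosen for their difference in the same libraries, so the matching signs describe chosen tiles.

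**Figure D3:**
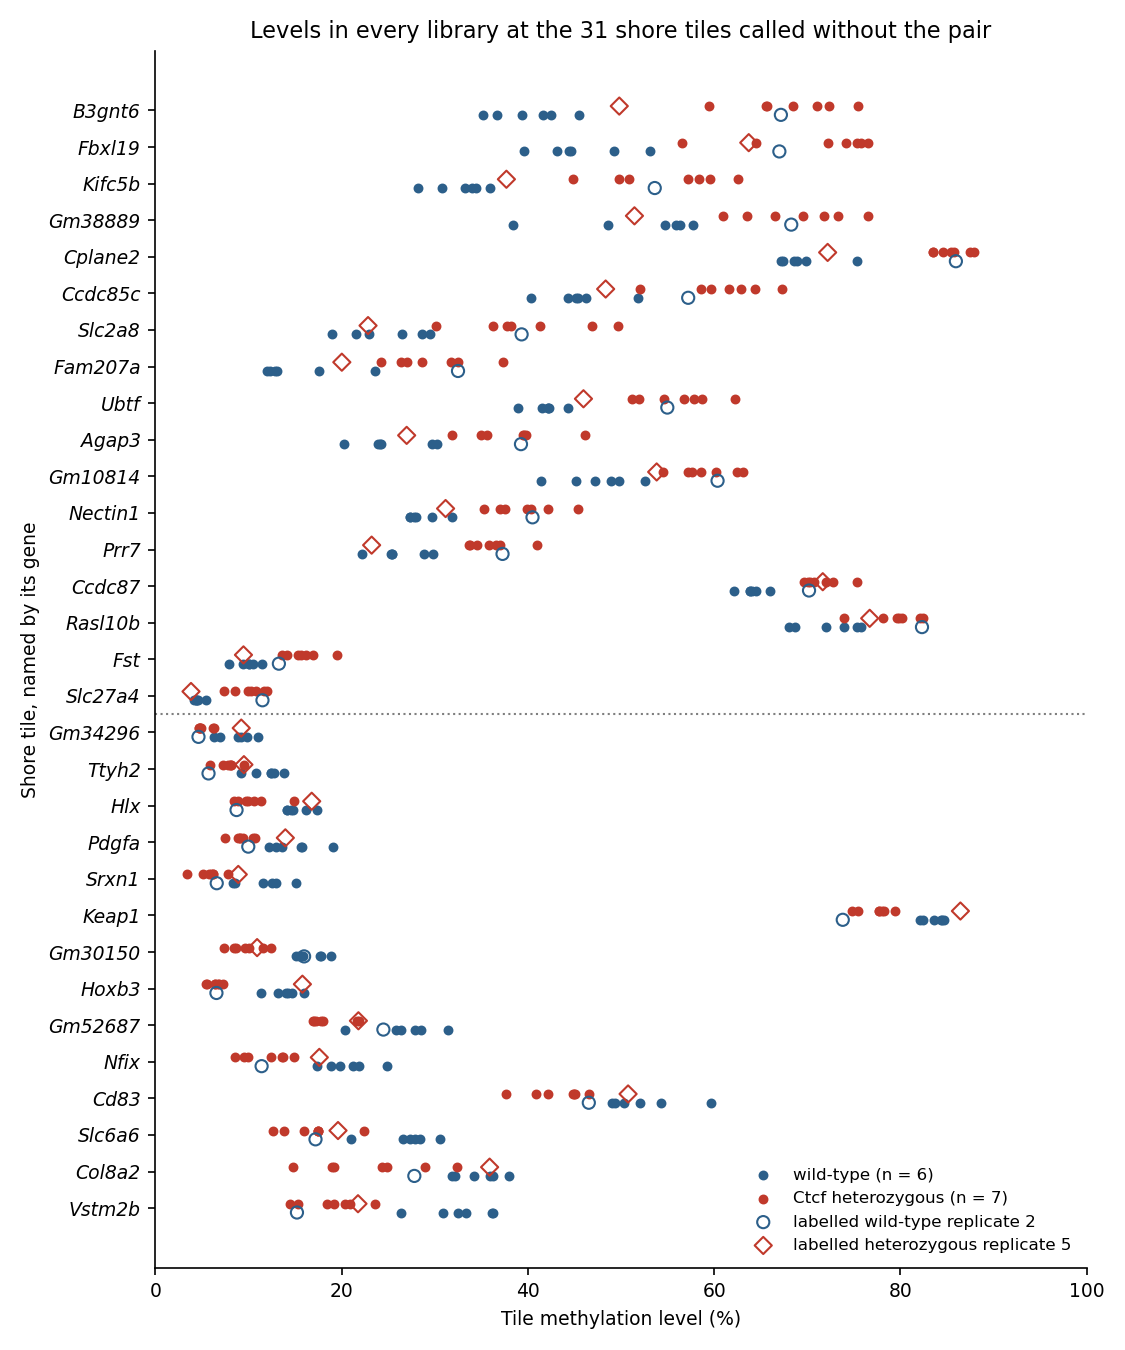
Methylation level (percent, horizontal axis) in every library at the 31 shore tiles called without the pair, 1 row per tile named by its gene, ordered by the difference; filled points are the 13 libraries compared and open symbols the 2 left out. Above the dotted line heterozygous libraries are higher (17 tiles) and below it lower (14 tiles); the open circle lies nearer the filled heterozygous points at 29 of 31 tiles.

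Among the tiles that rose, the largest difference was beside B3gnt6, the core 3 O-glycan synthase (chromosome 7, 98191000 to 98191999, 416 bases from the gene). Its wild-type libraries ran from 35.2% through a median of 40.5% to 45.5%, and heterozygous libraries from 59.4% through 68.5% to 75.4%. The groups did not overlap, and the difference was 28.1 points (quasi-binomial adjusted p = 0.000276). The library labelled wild-type replicate 2 stood at 67.2% and that labelled heterozygous replicate 5 at 49.8%. With all 15 libraries this tile had an adjusted p of 0.242.

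Fbxl19, an F-box protein that binds unmethylated CpGs (chromosome 7, 127768000 to 127768999), held 3 cytosines and few reads, with a median of 116 per library summed over them. Levels there were 39.6% to 53.1% in wild-type and 56.6% to 76.5% in heterozygous libraries, a difference of 25.1 points (quasi-binomial adjusted p = 0.0261). In Kifc5b, a kinesin (chromosome 17, 26931000 to 26931999), wild-type libraries ran from 28.2% through a median of 33.7% to 35.9% and heterozygous libraries from 44.8% through 57.2% to 62.5%. The groups did not overlap, with a difference of 21.9 points (adjusted p = 0.00140).

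Cplane2, a GTPase of cilium formation (chromosome 4, 141217000 to 141217999), gave the smallest adjusted p of all shore tiles. Wild-type libraries ran from 67.1% through a median of 68.7% to 75.4% and heterozygous libraries from 83.5% through 85.5% to 87.9%, at a difference of 15.9 points (quasi-binomial adjusted p = 0.000143). It rested on 12 cytosines, all of them higher in heterozygous libraries, by 3.05 to 31.8 points. Its dense neighbour, with 22 cytosines, was methylated in both genotypes, at 83.8% in heterozygous and 84.9% in wild-type libraries. Wild-type libraries were thus lower in the shore than in the dense tile, and heterozygous libraries were level with it.

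The other tiles among the 10 largest rises differed by 12.8 to 16.9 points. They lay in Gm38889, Ccdc85c, Fam207a, Ubtf, the transcription factor of RNA polymerase I, and Agap3, and 917 bases from Slc2a8, a glucose transporter. At Fam207a (chromosome 10, 77516000 to 77516999), wild-type libraries ran from 12.0% through 13.0% to 23.6% and heterozygous libraries from 24.3% through 28.6% to 37.3%. The difference was 14.4 points (quasi-binomial adjusted p = 0.0199). The dense tile that it borders, part of which is in the window printed above, stood at 0.119% in heterozygous and 0.152% in wild-type libraries.

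The remaining 7 rises included tiles of both very low and intermediate level. In Gm10814, 175 bases from the start site of Capn1, a calcium-dependent protease, the level was 47.5% ± 3.88 (SD, n = 6) in wild-type and 59.1% ± 3.04 (SD, n = 7) in heterozygous libraries. Prr7, a membrane adaptor (chromosome 13, 55473000 to 55473999), held 18 cytosines, of which 17 were higher in heterozygous libraries. Its tile ran from 22.1% to 29.8% in wild-type and from 33.7% to 41.0% in heterozygous libraries, while single cytosines ranged from 0.989% to 75.1% in the wild-type mean. In Fst, the activin inhibitor follistatin, levels were 7.96% to 11.5% and 13.6% to 19.5%. In Slc27a4, a fatty acid transport protein, they were 4.11% to 5.43% and 7.35% to 12.0%. Of its 18 cytosines, 8 were higher, and the rest were equal or lower by at most 0.469 points. The largest differences were 9.24, 16.4 and 27.4 points, at 607, 621 and 751 bases from its first cytosine. Nectin1, Ccdc87 and Rasl10b made up the rest, at differences of 11.0, 7.47 and 7.15 points.

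**Figure D4:**
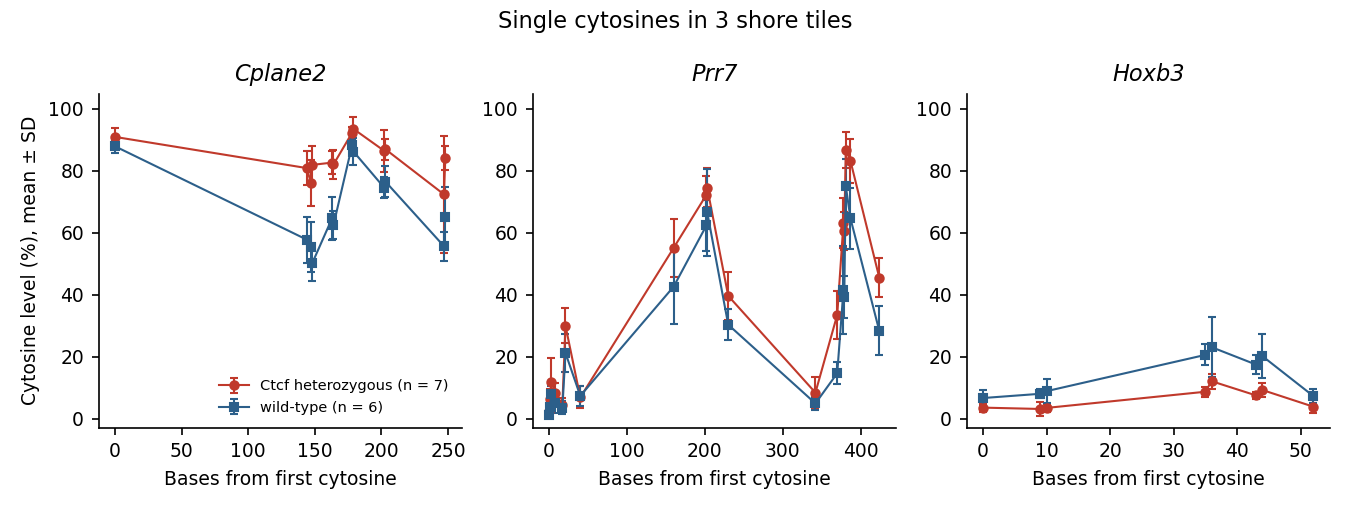
Level of single cytosines (percent, mean ± SD, n = 7 heterozygous and 6 wild-type libraries) against bases from the first measured cytosine in the shore tiles of Cplane2, Prr7 and Hoxb3. The genotype difference is uneven along the Cplane2 tile, 3.05 points at the first cytosine and 31.8 points at the fourth, and at all 8 Hoxb3 cytosines the wild-type mean is higher.

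Among the tiles that fell, the largest difference was in Vstm2b (chromosome 7, 40901000 to 40901999), where wild-type libraries ran from 26.4% through a median of 32.9% to 36.2% and heterozygous libraries from 14.4% through 19.1% to 23.6%. The groups did not overlap, at a difference of -13.7 points (quasi-binomial adjusted p = 0.0139). Col8a2, a collagen chain, differed by -11.4 points, Slc6a6, the taurine transporter, by -10.2 points, and Cd83, a surface protein of mature dendritic cells, by -9.31 points. In Col8a2 and Slc6a6 the highest heterozygous library lay above the lowest wild-type library.

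Nfix, a nuclear factor I gene (chromosome 8, 84707000 to 84707999), was the only called shore tile whose dense neighbour was called as well. Its shore tile had a level of 20.7% ± 2.63 (SD, n = 6) in wild-type and 11.8% ± 2.44 (SD, n = 7) in heterozygous libraries, and its dense neighbour stood at 26.2% and 15.5% (quasi-binomial adjusted p of 0.0164 and 0.0146). Over the 31 tiles, the dense neighbour differed in the same direction as the shore at 16 and had an unadjusted p under 0.05 at 6.

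Hoxb3, a homeobox gene of anterior-posterior patterning (chromosome 11, 96312000 to 96312999), had the smallest adjusted p among falls. Wild-type libraries ran from 11.3% through a median of 14.2% to 15.9% and heterozygous libraries from 5.46% through 6.44% to 7.28%, a difference of -7.50 points (quasi-binomial adjusted p = 0.000285). All 8 cytosines, within 52 bases, were lower in heterozygous libraries. The library labelled wild-type replicate 2 stood at 6.56% and that labelled heterozygous replicate 5 at 15.8%, each inside the range of the other genotype. At 2 other shore tiles in Hoxb3, differences went the opposite way, with 35.1% against 23.6% (chromosome 11, 96333000 to 96333999) and 26.6% against 15.7% (96342000 to 96342999), at quasi-binomial adjusted p of 0.174 and 0.302.

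The Gm30150 tile near Akt1, the Gm52687 tile and the Srxn1 tile, already named for 15 libraries, passed without the pair at -7.07, -8.08 and -5.75 points. Keap1, the adaptor that marks the oxidative stress factor NRF2 for degradation (chromosome 9, 21237000 to 21237999), had the highest level among the falls. Its wild-type libraries ran from 82.1% through a median of 84.0% to 84.7% and heterozygous libraries from 74.8% through 77.7% to 79.4%, at an adjusted p of 0.0498 by the quasi-binomial test. That call ended in 12 of the 13 fits that left out 1 library, as did the call at Gm52687. Sulfiredoxin (Srxn1) is a known target of NRF2, and its tile was at 5.79% against 11.5%. The Srxn1 call ended in 5 of the 13 fits that left out 1 library, and also with limma and with edgeR. A link between the Srxn1 and Keap1 tiles was not tested. Pdgfa, a growth factor, Hlx, a homeobox gene lying 2507 bases from its tile, Ttyh2 and Gm34296 fell by less, with differences of -5.55, -4.65, -4.09 and -3.49 points.

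Calls at 12 of the 31 tiles held in every fit that left out 1 of the 13 libraries, and 6 of them held also with limma and edgeR. These 6 were B3gnt6, Kifc5b, Cplane2, Slc27a4, Vstm2b and Hoxb3. B3gnt6 was the tile still called in the libraries with 2 decimals. The 31 tiles held 246 tested cytosines, of which 225 differed in the direction of their tile. Tile levels are read sums over these same cytosines, so this count describes chosen tiles and is no separate test.

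Around Ctcf itself (chromosome 8, 105636474 to 105682922), 281 shore tiles lay within 20 Mb. None passed in the 13-library comparison by the quasi-binomial test, and 24 had an unadjusted p under 0.05, where 10.8% of all shore tiles did. The Ctcf shore tile (chromosome 8, 105635000 to 105635999), with 14 cytosines, ran from 0.0364% to 0.499% over all 15 libraries. It was at 0.180% in heterozygous and 0.293% in wild-type libraries without the pair (adjusted p = 0.733).

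Gene lists were described by their shore tiles, with 2 references in 13 libraries: 0.278% of shore tiles were called, and 10.8% of shore tiles and 10.5% of all tiles had an unadjusted p under 0.05. Each list's count at an unadjusted p is read against the latter share, and none was tested as a list. Among genes of CTCF and cohesin, 6 of 14 had a shore tile, and 0 of their 7 tiles were called with 0 at an unadjusted p under 0.05. Their median level was 0.244%, and 6 of the 7 tiles, at Ctcf, the cohesin subunit Rad21, the loader Nipbl, Pds5a and the factor Zfp143, were under 20%. The release factor Wapl had the methylated tile, at 90.5%. The 17 shore tiles of writers, erasers and readers of methylation had a median of 26.5%, and 0 were called, with 2 at an unadjusted p under 0.05. These were Dnmt3b, a de novo methyltransferase, at 63.4% in heterozygous and 57.2% in wild-type libraries, and Mbd4, a repair glycosylase, at 0.775% and 1.58%.

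Many imprinted genes are controlled by regions methylated on the copy from 1 parent, and CTCF is known to act at some of these regions. Of 60 listed, 30 had a shore tile, and 0 of their 43 tiles were called, with 7 at an unadjusted p under 0.05. The median level was 28.9%, against 11.9% over all shore tiles, and 39.5% of the imprinted tiles lay under 20%, such as a tile of Cd81 at 0.377%. The tiles of Commd1 and Zrsr1, which overlap, stood at 42.6%, 39.0% and 40.7%, H13 and Mcts2 at 52.3%, Inpp5f at 46.8%, and Gnas at 33.7% to 91.6%. Inpp5f ran from 42.8% to 51.4% by library, while the Igf2r and Airn tile ran from 8.47% to 54.0%. Ppp1r9a came nearest to the threshold, at 14.5% in heterozygous and 3.45% in wild-type libraries without the pair (quasi-binomial adjusted p = 0.0503), followed by Gab1 at 5.90% and 2.50% (adjusted p = 0.0678).

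Markers of the cell types of lung gave 0 called tiles. An unadjusted quasi-binomial p under 0.05 occurred at 3 tiles of lung epithelium and at 0 of endothelium, mesenchyme and leukocytes. Lung epithelium had 14 shore tiles with a median of 42.7%, among them Sftpc, the surfactant protein of alveolar type 2 cells, at 33.5% and 58.7%, and the transcription factor Nkx2-1 at 2.73% and 2.87%. At Foxj1, the regulator of motile cilia, 1 tile was at 32.6% in heterozygous and 39.3% in wild-type libraries (quasi-binomial adjusted p = 0.238). Endothelium had 10 tiles with a median of 12.5%, mesenchyme and smooth muscle 6 with a median of 80.9%, and leukocytes 1, at Cd4, with 0.488%. Over all 15 libraries, the mean level of a list was 40.2% in heterozygous and 40.3% in wild-type libraries for lung epithelium, 18.2% and 16.7% for endothelium, and 64.4% and 64.3% for mesenchyme. A part of cell composition in the called tiles was not tested.

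Lung tumour genes had 40 shore tiles, of which 1 was called, the Keap1 tile already described, and 7 had an unadjusted quasi-binomial p under 0.05. Cdkn2a, the tumour suppressor locus, stood at 57.4% in heterozygous and 64.4% in wild-type libraries without the pair (quasi-binomial adjusted p = 0.153), and Met, a receptor kinase, at 44.8% and 54.0% (adjusted p = 0.442). Homeobox and developmental regulators had 327 shore tiles, with a median of 6.15% and 85.9% of tiles under 20%, against 55.4% over all shore tiles. The Hoxb3 tile was the 1 called among them, and 33 had an unadjusted p under 0.05.

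Spread between mice was the mean squared difference in tile level between libraries of a genotype, less the binomial sampling variance of the summed reads. That variance takes every reading of a cytosine as independent. Where 1 read covers several cytosines it can be too small, and the spread may then keep some sampling noise. The spread was divided by 2 to the scale of a variance and is in squared percentage points. It was 9.65 for heterozygous and 9.38 for wild-type pairs over shore tiles (exact two-sided permutation of genotype p = 0.868, n = 8 and 7). Without the pair it was 9.81 and 9.27 (exact permutation p = 0.748, n = 7 and 6). Pairs of the same labelled sex gave 10.1 for heterozygous and 6.37 for wild-type libraries, a comparison that was not tested as such. Within labelled females alone the values were 10.7 and 5.81 (exact permutation p = 0.2, n = 4 and 4), and within labelled males 9.46 and 7.48 (exact permutation p = 0.571, n = 4 and 3). In the libraries with 2 decimals the values were 11.1 and 8.59 (exact permutation p = 0.0714, n = 4 and 5). Leaving out wild-type replicate 6 or 7, or heterozygous replicate 3 or 6, turned the sign of the 15-library difference, which then lay between -0.436 and -0.124.

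Shore tiles varied less between mice than distant tiles and more than dense tiles. The per-library variance around the other mice of the same genotype averaged 9.52 in shore, 14.5 in distant and 1.54 in dense tiles (exact two-sided sign-flip permutation p = 6.10352e-05 for each contrast, n = 15 libraries). Level goes with spread, since a tile near 0% or 100% has little room to vary. Among tiles with a mean level of 20% to 80%, the variance was 25.5 in 3138 shore tiles and 26.1 in 43639 distant tiles (exact sign-flip permutation p = 0.195, n = 15). At 40% to 60% it was 30.7 and 33.7 (exact sign-flip permutation p = 0.000122, n = 15), lower in shore tiles. Against dense tiles of 20% to 80%, shore tiles were more variable, at 25.5 and 20.9 (exact sign-flip permutation p = 0.000549, n = 15), but those dense tiles held a median of 25 cytosines against 5. The contrast did not differ between genotypes in 15 libraries (exact permutation p = 0.455 against distant and 0.937 against dense tiles, n = 8 and 7).

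**Figure D5:**
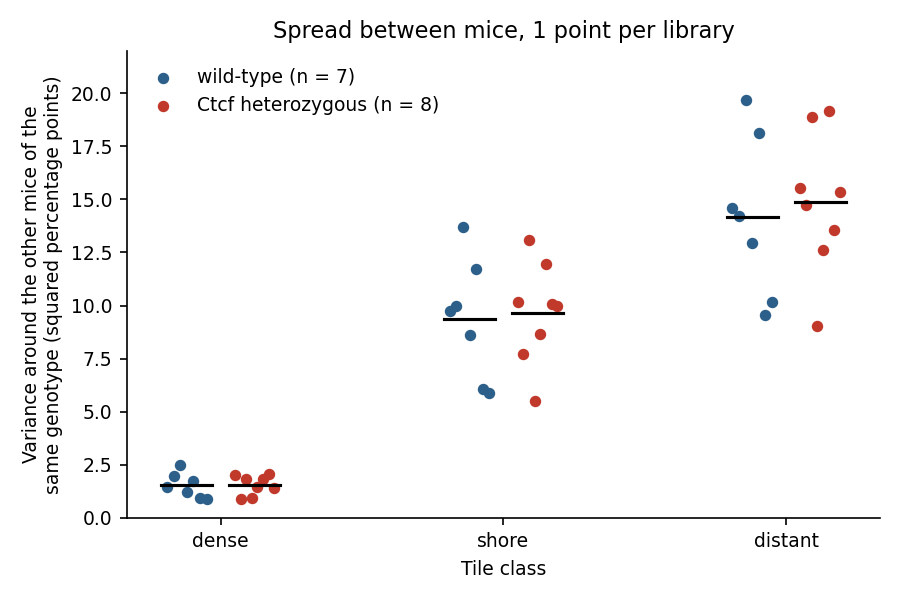
Variance of tile levels around the other mice of the same genotype (squared percentage points, vertical axis), for dense, shore and distant tiles. Binomial sampling variance was removed, with readings of cytosines taken as independent. Each point is 1 library and the black bars are genotype means. Shore values run from 5.51 to 13.7, between dense and distant tiles in every library, and the genotypes overlap.

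The range between the lowest and highest of the 15 libraries had a median of 6.79 points over shore tiles, 0.524 over dense and 11.5 over distant tiles. It was under 5 points at 42.2% of shore tiles and over 20 points at 10.2%. The median SD was 0.340 points at shore tiles under 5%, 4.84 points at 20% to 80% and 2.43 points at 80% to 95%.

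A test of spread at each tile (limma on absolute deviations of transformed levels) called 2 of 11150 shore tiles in 13 libraries, against 0.00227% of all tiles, and 5 of 11153 in 15 libraries, against 0.00983%. All of these calls were at tiles close to 0%, where every library of a genotype had 0 methylated reads and the other genotype had 3 to 5 in all. In 13 libraries they were Dcun1d2 and Ets2, both with 0 methylated reads in 7 heterozygous libraries and at most 1.37% and 0.813% in wild-type libraries. In 15 libraries they were Dynll2, Baz1a, Ets2 and Camk4, at 0 in heterozygous libraries, and Kpna1, at 0 in wild-type libraries. Baz1a had an adjusted p of 0.0534 by limma in 13 libraries. The 3 tiles of smallest p with more spread in heterozygous libraries, Pcdh1, Kpna1 and Smim13, reached 3.03%, 0.643% and 0.704% there and 0% in the 6 wild-type libraries. At an unadjusted p under 0.05 by limma, 438 shore tiles had more and 419 less spread in heterozygous libraries of the 13, together 7.69% of shore tiles against 7.54% of all tiles. In 15 libraries 786 shore tiles, or 7.05%, had such a p, against 7.07% of all tiles.

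The genotype difference depended on labelled sex at 4 shore tiles in 15 libraries (quasi-binomial adjusted p = 0.0486 at each), against 0.0726% of all tiles. In Cyp26c1, an enzyme that degrades retinoic acid (chromosome 19, 37686000 to 37686999), wild-type females by label ran from 32.2% to 37.9%. Wild-type males by label ran from 57.8% to 64.1%, and heterozygous females and males from 48.3% to 63.9%. These groups keep the pair whose Y-chromosome counts depart from their sex labels. At Cyp26c1, wild-type replicate 2 counts as a male at 61.5% and heterozygous replicate 5 as a female at 54.5%. In Vps18, Dennd4b and Gm46852, grouped by the same labels, wild-type females were highest instead, at means of 70.9%, 75.9% and 70.3%. Wild-type males had means of 60.4%, 58.3% and 56.7%. Heterozygous means at these 3 tiles were 62.9%, 57.6% and 53.7% in females and 64.6%, 63.7% and 58.2% in males. Without the pair, which leaves 2 wild-type males, 15 of 11150 shore tiles passed, against 0.278% of all tiles.

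The count of tiles with a genotype by sex term moved with single libraries. The count of 4 became 0 without any 1 of 11 libraries, 1 without wild-type replicate 3, and 86, 59 and 137 without heterozygous replicates 1, 5 and 6. Labelled sex and decimals overlap here, since both wild-type tables with 3 decimals were from females.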

How the data were processed

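Bisulfite reads had been processed with Bismark and methylKit on mm10, per the submitters' processing notes, which give no versions. Per the file headers, the authors deposited for each CpG cytosine and strand the coverage as a count of reads, with a minimum of 10, and the percent of reads with C and with T. Here percentages were turned back into whole methylated and unmethylated reads, and those whose coverage passed the 99.9 percentile of a library were left out of the values. Read sums per tile were fitted by a quasi-binomial logistic model of genotype and sex, with moderated dispersion held at 1 or more, in Python 3.11 code with numpy. Adjusted p is Benjamini-Hochberg over all tested tiles, with a threshold of 0.05. limma 3.58.1 (2 reads added to each count) and edgeR 4.0.16 in R 4.3.3 served as alternatives. Values per library were compared by exact permutation. The fit was tested on simulated data. Errors are SD over mice. Reads carried no molecular identifiers, so depth states counting precision only.

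Genes came from RefSeq GRCm38.p6, the same assembly as mm10, and 100% of 245807 cytosines in promoter windows fell on a matching base. Exons, introns and sequence outside promoter windows were not analysed here. Tiles named were the 3 of smallest p in each direction where none passed, the largest 10 rises and 10 falls among calls and, for spread, 3 in each direction. All called shore tiles beyond these were named after their values were seen. Of the tiles this rule names, 1 is not reported here. Members and lists were chosen with earlier results of these data known.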

Additional observations from a re-analysis of the deposited data

Results flagged for a closer look

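At 11 of the called shore tiles, 1 library stood far from the others of its labelled genotype when all 15 were set side by side. The library labelled wild-type replicate 2 stood apart from the other wild-type libraries at B3gnt6 (67.2%), Kifc5b (53.6%), Ubtf (55.0%), Nectin1 (40.5%), Slc27a4 (11.5%), Keap1 (73.8%) and Hlx (8.72%). The library labelled heterozygous replicate 5 stood apart from the other heterozygous libraries at Cplane2 (72.2%), Prr7 (23.2%), Hoxb3 (15.8%), Keap1 (86.4%) and Gm34296 (9.23%). These 12 came from 74 groups looked at, of which chance marks about 1 in 20, and all 12 were from this pair of libraries. The tiles had been called with the pair left out, so this count describes chosen tiles.

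The genotype difference in labelled males minus that in labelled females was 12.2 points at Vps18, 23.7 points at Dennd4b, 18.2 points at Gm46852 and -27.7 points at Cyp26c1, each tested by a genotype by sex term.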

How the results depend on the processing

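The contrasts of shore tiles with dense and distant tiles, and of the positions within the shore, kept their direction under every alternative run. With 13 libraries and only tables of 3 decimals, they were 24.2, -39.3 and -35.6 points for level and 6.36 and -4.23 for spread, at an exact permutation p of 0.0625, the smallest that design allows. The 31 calls of the 13-library comparison became 12 with limma, 19 with edgeR, 7 without moderated dispersion, 54 with age beside sex, 1 in tables of 2 decimals and 17 to 56 without single libraries. Of the 31 tiles, 10 remained called with limma, 14 with edgeR and 26 with age. Without single libraries, the 15-library comparison called 0 to 7, and the genotype by sex term 0 to 137 with 15 and 0 to 443 with 13 libraries. With 13 libraries that term gave 443 without heterozygous replicate 6, 187 without heterozygous replicate 1 and at most 8 without any other library. The cause of these moves was not tested.

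With dense tiles of at least 15 cytosines, the genotype difference of shore minus distant level was -0.317 points in 15 libraries and -0.362 in 13, with exact permutation p of 0.0379 for both. In 10 of 11 alternatives it did not pass, in 15 and in 13 libraries alike. Without single libraries it ran from -0.474 to -0.284 and, in 13, from -0.545 to -0.325. It did not pass in 12 of 15 and in 10 of 13 such runs. The genotype difference in mean level turned to -0.221 in tables of 2 decimals and -0.330 in labelled males, and with 13 libraries to -0.201 and -0.482. That in spread ran from -0.436 to 1.12 without single libraries, and from -0.433 to 1.91 in 13. No paired analysis was possible because numbers were given to replicates in sample order and tie no animals together. Tiles near 0% rest on few methylated reads, which limits any test of spread there.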
